A study of Mus musculus with 30 samples.

Results

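Microglia sorted from the spinal cords of mice with EAE that received the RIPK1 kinase inhibitor RIPK1inh-1 were compared with microglia of naive mice, to describe the state of the microglia in treated disease. The comparison rests on 9 of the 30 samples of the series, 5 EAE-RIPK1inh-1 and 4 naive microglia libraries, and on the 10460 of 30952 genes in the table whose mean over these libraries was at least 1 on the log2 scale. The vehicle-treated libraries were not used. The disease, the inhibitor and the dosing therefore differed between the groups at the same time, and their effects cannot be told apart here.

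EAE (experimental autoimmune encephalomyelitis) is a mouse model of multiple sclerosis in which T cells are primed against a myelin peptide. Female C57BL/6 mice were immunized with residues 35 to 55 of MOG (myelin oligodendrocyte glycoprotein). When the clinical score, a scale of paralysis, had reached about 1, they were given RIPK1inh-1 at 50 mg/kg by oral gavage, in 2 doses a day over 3 days. The other arm of the study received 20% Captisol. The naive mice were not immunized, and the labels give no vehicle dosing for them. Microglia were sorted as CD11b+ cells with intermediate CD45 and surface CX3CR1, so the transcripts of these proteins (Itgam, Ptprc and Cx3cr1) belong to the gate. The labels give the strain and sex and no age, and each library is taken as a separate animal, since the study counts these samples as mice.

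Microglia are the resident macrophages of the CNS. At rest they express a set of surface receptors and enzymes that depends on TGF-beta, often called the homeostatic signature, which includes the ADP receptor P2ry12 and Tmem119. In inflamed tissue, interferon gamma from T cells induces MHC class II, which presents peptides to CD4 T cells, and GTPases that attack intracellular membranes of microbes. RIPK1 is a kinase of the TNF receptor complex that can lead to apoptosis, to necroptosis through RIPK3 and MLKL, or to inflammatory transcription.

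Values are log2 FPKM (a read density corrected for transcript length and sequencing depth), quantile-normalized by the authors, and a difference is the mean log2 value in EAE-RIPK1inh-1 minus that in naive microglia. Genes with signal, meaning above the stretch of values given to undetected genes, numbered 8710 to 15639 in naive and 14105 to 14865 in EAE-RIPK1inh-1 libraries. The fewest were in naive replicate 4, which correlated with its own group at a Pearson's r of 0.808 to 0.826 across genes, while the best match of each other naive library was 0.918 to 0.944. Of the 10460 genes, 2802 had no signal in it, and 7048 had signal in all 9 libraries. The 12 markers of microglia and macrophages all passed the minimum and averaged 10.8 to 11.2 in naive and 10.2 to 11.2 in EAE-RIPK1inh-1 libraries. None of the 6 neuronal, 4 oligodendrocyte precursor and 5 dendritic cell markers reached a mean of 1, while 1 of 13 T cell, 2 of 6 B cell, 2 of 6 endothelial, 1 of 5 NK cell, 2 of 9 border-associated macrophage, 3 of 8 astrocyte, 5 of 7 oligodendrocyte and 4 of 5 erythrocyte markers did. Erythrocyte markers averaged 4.48 in naive replicate 4 and 4.51 in EAE-RIPK1inh-1 replicate 3, and 0.14 to 2.63 in the other libraries. The 10 neutrophil markers averaged 8.46 in naive replicate 3 and 9.39 in EAE-RIPK1inh-1 replicate 3, and 2.00 to 5.33 in the other libraries. The summed neutrophil signal, with each log2 value taken as that of FPKM plus 1, was 360 to 18405 in naive and 226 to 36638 in EAE-RIPK1inh-1 libraries, so the ranges of the groups overlapped. Of the 12 monocyte markers, 9 reached a mean of 1. Some reached it only through the EAE-RIPK1inh-1 libraries, such as Fn1, at 0.26 on average in naive and 4.73 in EAE-RIPK1inh-1 libraries. The signs of their differences are therefore not counted. The summed signal of the 12 was 16, 30, 955 and 109 in naive libraries. It was 57, 273, 1766, 322 and 150 in EAE-RIPK1inh-1 libraries. Ccr2, the receptor that defines blood monocytes, was listed at 0.17 to 1.28 in the 4 naive libraries, all without signal. In EAE-RIPK1inh-1 libraries it was at 0.23 to 3.18, with 1 library without signal. The listed values of the groups overlapped (limma, adjusted p = 0.575). In these bulk libraries, fewer cells of a type and less RNA per cell cannot be told apart. The part that blood cells play in the differences was not tested, and counts of called genes without both replicates 3 are given for lists with more than 1 called gene.

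**Figure D1:**
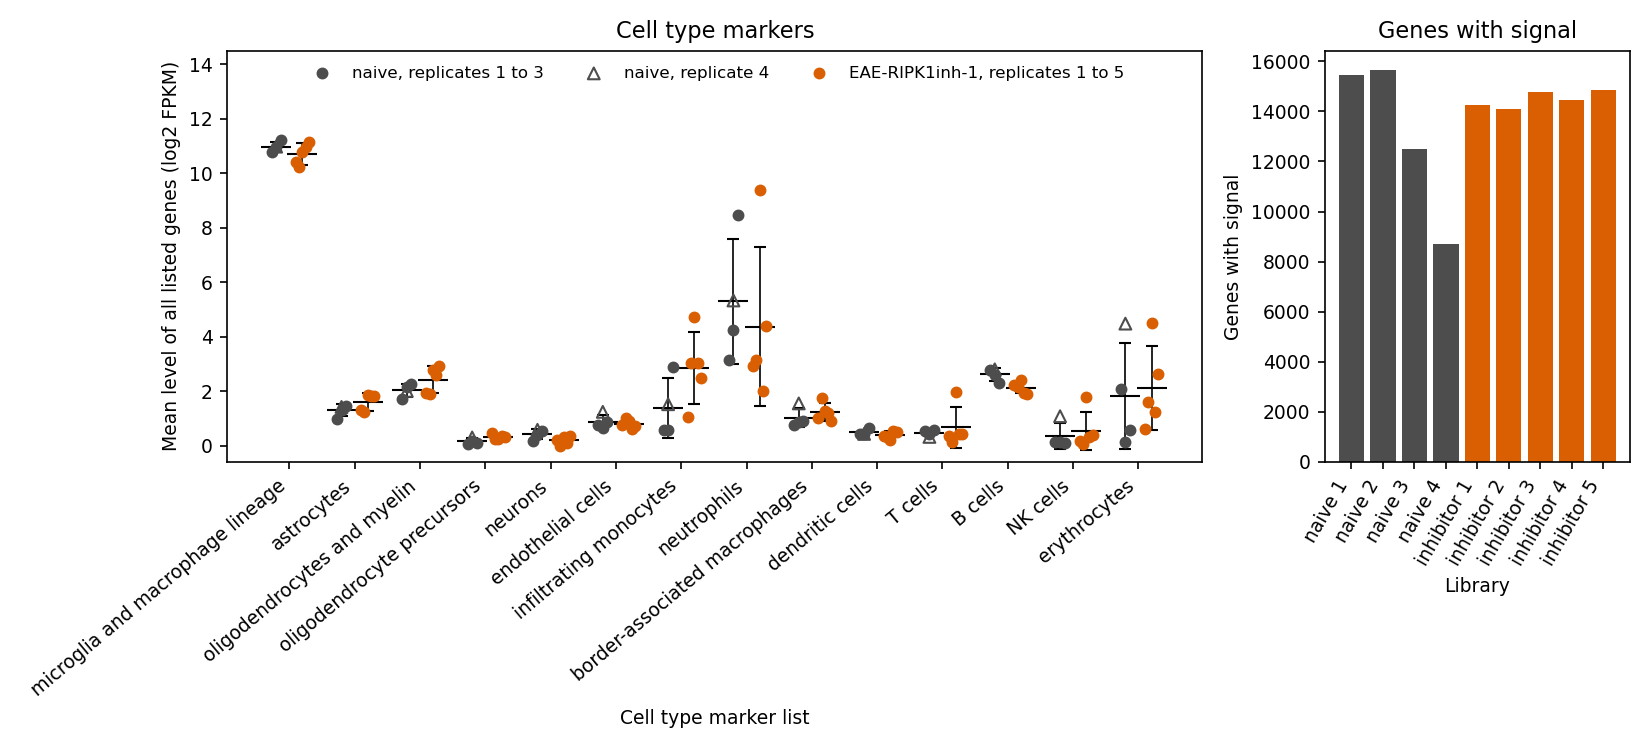
Left, mean level of all genes of each cell type marker list (log2 FPKM) in each library, with a line at the group mean and bars of 1 SD; right, the number of genes with signal per library. Microglial markers lie between 10.2 and 11.2 in all 9 libraries, neutrophil markers stand high in replicate 3 of both groups, and naive replicate 4 holds 8710 genes with signal.

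At an adjusted p under 0.05 in limma's moderated test, 227 of the 10460 genes were higher in EAE-RIPK1inh-1 microglia (2.17%) and 96 were lower (0.918%). MHC class II genes and interferon-inducible GTPases led the rises, and 3 of the 10 largest falls were homeostatic microglial genes. The median difference was 2.96 among the higher and -2.24 among the lower genes, with 0.02 over all 10460 genes, and the smallest called difference was 1.03 in size. At the study's cutoff, a fold over 1.5 and an unadjusted p under 0.05, 1194 genes were higher (11.4%) and 963 lower (9.21%). The libraries of the groups did not overlap for 684 higher genes (6.54%) and 503 lower genes (4.81%), and all 323 called genes were among them. A lack of overlap in a called gene therefore adds no support to its call. Of the 10460 genes, 5308 had a positive and 5152 a negative difference. Leaving out naive replicate 4 gave 233 higher and 94 lower genes, and 239 genes were called both with and without it. The higher count fell to 135 without naive replicate 1, 144 without naive replicate 2, and 134, 129 and 136 without EAE-RIPK1inh-1 replicate 2, 4 and 5. The lower count was 28, 31 and 49 without naive replicate 1, 2 and 3, and 37, 61, 40 and 52 without EAE-RIPK1inh-1 replicate 2, 3, 4 and 5. Without both replicates 3 there were 97 higher and 20 lower genes.

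MHC class II presentation held the 2 largest called differences. Of its 11 genes, 7 rose and 0 fell, against 2.17% and 0.918% of all genes, with a list median of 3.43. H2-Aa, the alpha chain of I-A (ENSMUSG00000036594), was at 0.36, 1.80, 0.94 and 2.36 in naive and at 11.14, 11.25, 11.04, 11.81 and 11.14 in EAE-RIPK1inh-1 libraries. Every EAE-RIPK1inh-1 library lay more than 8 log2 units above every naive library. The difference was 9.91 (standard error 0.40, adjusted p = 1.52e-05). H2-Eb1, the beta chain of I-E, was at 1.98, 1.47, 0.92 and 2.13 against 10.27, 10.06, 10.57, 11.48 and 10.57, a difference of 8.96. C57BL/6 mice make no I-E alpha chain, so this transcript has no partner there. Cd74, the invariant chain that guards the peptide groove, started higher, at 6.52 to 7.55, and reached 13.71 to 15.34, a difference of 7.55 (standard error 0.35). The value 15.34 is the top of the scale, so a rise beyond it could not be seen. H2-Ab1, the I-A beta chain, went from 4.26 to 5.48 up to 11.64 to 13.01. Ciita, the transactivator of these genes, was at 0 to 0.25 in naive libraries, 2 of them without signal, and at 3.80 to 6.34 in EAE-RIPK1inh-1 libraries (adjusted p = 0.00436). The peptide exchange factors H2-DMa and H2-DMb1 were already at 8.43 and 7.74 on average in naive microglia and rose by 1.37 and 1.10. H2-Ob, which restrains that exchange, was at 5.87 ± 0.60 (SD, n = 4) and 5.45 ± 0.52 (SD, n = 5), a difference of -0.42 (standard error 0.36, adjusted p = 0.575). The calls of H2-Aa, H2-Eb1, Cd74 and H2-Ab1 held in each of the 9 fits that left out 1 library. The list count was 6 in each of them and 5 without both replicates 3, and the list median was 2.06 without naive replicate 4.

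**Figure D2:**
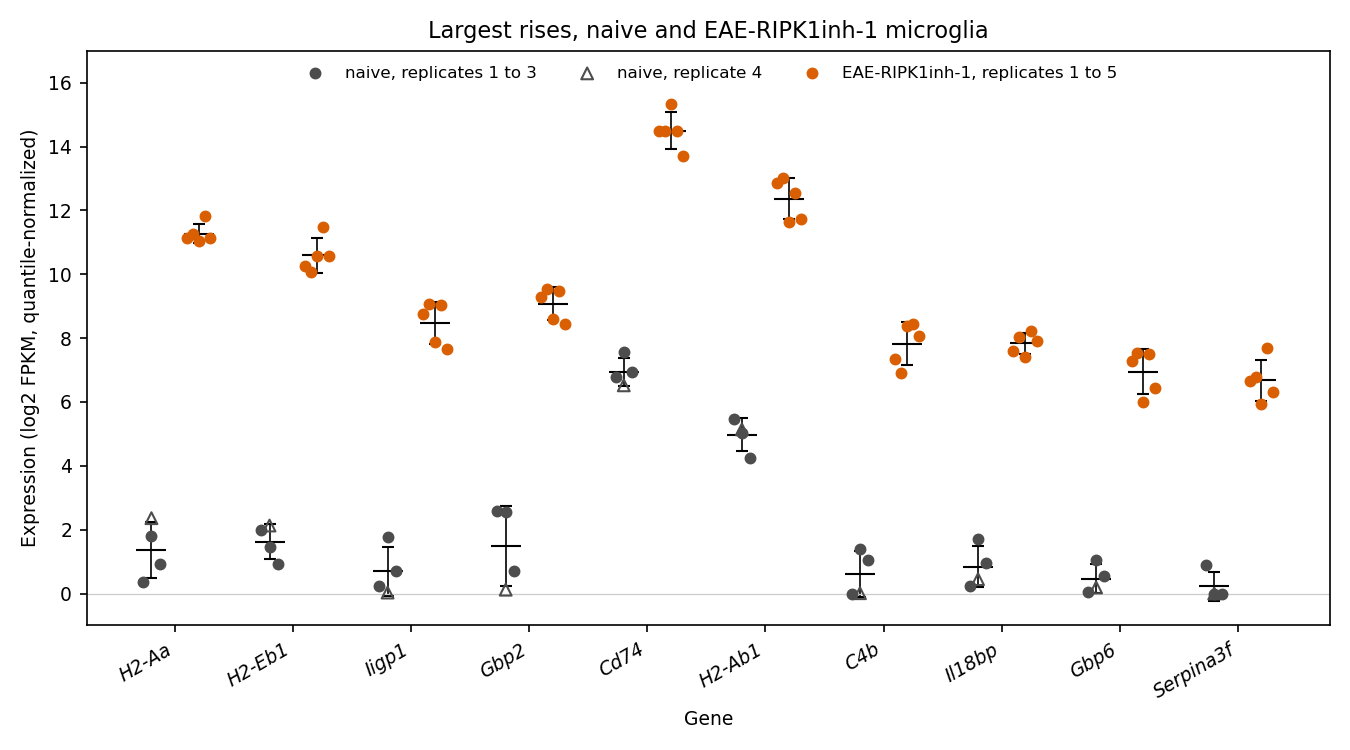
Expression (log2 FPKM) of the 10 genes with the largest rises in each library, naive in grey and EAE-RIPK1inh-1 in orange, with a line at the group mean and bars of 1 SD. The 10 were picked among genes without overlap between the groups, so their separation follows from that choice. Cd74 and H2-Ab1 were the highest of the 10 in naive microglia.

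The promoters of 4 genes of the MHC and interferon groups are shown because they hold one of the 3 short motifs that were searched on both strands, and capitals mark the match. They were GAS (TTCNNNGAA), the interferon gamma-activated site, the core of the ISRE (GAAANNGAA), bound by IRF family factors, and the Y box of MHC genes (CTGATTGG), an inverted CCAAT box bound by NF-Y. GAS and ISRE letters can overlap. Each sequence is that of RefSeq on GRCm38.p6, from 250 bases before to 50 after the start of the gene.
H2-Aa, chr17:34287774-34288073, minus strand: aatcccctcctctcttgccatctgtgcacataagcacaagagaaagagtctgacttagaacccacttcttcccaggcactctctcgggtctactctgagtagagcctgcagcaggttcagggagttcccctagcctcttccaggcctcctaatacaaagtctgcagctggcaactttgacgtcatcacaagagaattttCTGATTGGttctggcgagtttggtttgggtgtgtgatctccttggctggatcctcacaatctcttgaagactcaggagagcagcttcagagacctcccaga
H2-Eb1, chr17:34305617-34305916, plus strand: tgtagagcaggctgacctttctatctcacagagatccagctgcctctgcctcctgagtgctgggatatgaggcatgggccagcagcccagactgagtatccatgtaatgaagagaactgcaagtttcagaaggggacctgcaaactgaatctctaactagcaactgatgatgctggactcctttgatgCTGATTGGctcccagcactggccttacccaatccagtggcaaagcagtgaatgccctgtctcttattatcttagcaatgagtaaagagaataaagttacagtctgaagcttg
Gbp2, chr3:142620413-142620712, plus strand: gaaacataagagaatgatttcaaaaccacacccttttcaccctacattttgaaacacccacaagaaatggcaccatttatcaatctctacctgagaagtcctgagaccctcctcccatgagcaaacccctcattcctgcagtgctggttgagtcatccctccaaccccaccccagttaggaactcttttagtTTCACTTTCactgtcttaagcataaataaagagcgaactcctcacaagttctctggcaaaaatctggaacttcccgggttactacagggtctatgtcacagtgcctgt
H2-Q7, chr17:35438905-35439204, plus strand: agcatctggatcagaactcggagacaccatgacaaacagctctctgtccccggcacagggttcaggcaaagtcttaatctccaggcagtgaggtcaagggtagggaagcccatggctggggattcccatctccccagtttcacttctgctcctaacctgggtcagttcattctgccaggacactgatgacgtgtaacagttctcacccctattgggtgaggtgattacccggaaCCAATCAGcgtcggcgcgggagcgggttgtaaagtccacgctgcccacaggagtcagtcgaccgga
The Y box began 51 bases before the start of H2-Aa and 62 before that of H2-Eb1, and lay on the other strand 16 bases before the start of H2-Q7. The ISRE core of Gbp2, also on the other strand, began 58 bases before its start. Of the 10460 genes, 8059 had a promoter in the table. Among the 227 genes called higher, 164 had one and 44 of these held an ISRE core (26.8%), against 9.08% of the promoters of all genes with a mean of at least 1 and 9.76% of all 27025 genes in the table. Of 77 promoters of genes called lower, 6 held it (7.79%). GAS was found in 10.4% of the promoters of higher genes, 9.09% of those of lower genes and 9.55% of all. The Y box was found in 3 of 8 MHC class II and 7 of 19 MHC class I promoters, in 6.93% of those of genes with a mean of at least 1 and in 4.70% of all genes. Of 10 promoters of interferon-inducible GTPases, 9 held an ISRE core and 6 held GAS. These shares are descriptions of the letters and were not tested.

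Interferon-inducible GTPases rose as a group. Of the 15 genes, 11 rose and 0 fell, against 2.17% and 0.918% of all genes. The list median was 4.55, and the list mean moved from 2.00 to 2.87 in naive up to 6.16 to 7.51 in EAE-RIPK1inh-1 libraries. Iigp1, a GTPase that acts on the vacuoles of parasites, was at 0.23, 1.78, 0.72 and 0.03 in naive and 8.74, 9.06, 7.87, 9.05 and 7.66 in EAE-RIPK1inh-1 microglia. Gbp2, a guanylate-binding protein of the same defense, was at 2.59, 2.54, 0.71 and 0.12 against 9.29, 9.54, 8.61, 9.49 and 8.45. Both are among the 10 largest rises, which were picked among genes without overlap between the groups. The differences were 7.79 (standard error 0.45) and 7.58 (standard error 0.56), with adjusted p values of 7.77e-05 and 0.000386. Serpina3f, a serine protease inhibitor among the 10 largest rises, was listed at 0 in 3 naive libraries and at 0.90 in naive replicate 1, against 5.94 to 7.68 in EAE-RIPK1inh-1 libraries. Gbp6 rose by 6.49, Tgtp2 by 6.10 and Irgm1 by 3.13. Tgtp1 and Tgtp2 are near-identical copies, as are several Gbp genes, and how reads were divided among them is uncertain. The 4 members that were not called, Gbp5, Gbp9, Igtp and Irgm2, had differences of 1.18 to 2.48. Igtp was already at 5.27 to 7.30 in naive microglia. The count was 9 without EAE-RIPK1inh-1 replicate 2 or 4 and 10 without both replicates 3.

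MHC class I genes and the peptide loading machinery moved the same way with smaller differences. All 21 members had a positive difference, as had 5308 of all 10460 genes. At the adjusted p 9 rose, against 2.17% of all genes, and the median was 1.94. The classical heavy chain H2-K1 went from 8.48 ± 0.39 (SD, n = 4) to 10.75 ± 0.56 (SD, n = 5), a difference of 2.27, and H2-D1 rose by 2.19. B2m, the light chain shared by all class I molecules, was among the most abundant transcripts already at 12.32 to 12.70 in naive and reached 13.51 to 14.48. Nlrc5, the transactivator of class I genes, was at 2.72, 1.99, 0.78 and 1.96 against 6.08, 6.32, 6.89, 6.50 and 5.96 (difference 4.49, standard error 0.39, adjusted p = 0.00109). All EAE-RIPK1inh-1 libraries lay above all naive libraries. H2-Q7 and H2-Q6, nonclassical class I genes, rose by 6.03 and 5.16, although these paralogs share much sequence and their values are uncertain. The immunoproteasome subunits Psmb8 and Psmb9 rose by 1.57 and 1.92. In contrast to these, 0 of 31 constitutive proteasome genes were called in limma's test, and their median was 0.27. At the study's cutoff 4 of the 31 were higher and 1 was lower, against 11.4% and 9.21% of all genes. The peptide transporter Tap1 had a difference of 2.57 without passing the test (adjusted p = 0.0597). The class I count was 6 without naive replicate 1 or 2 or EAE-RIPK1inh-1 replicate 3, 4 or 5, and 3 without both replicates 3.

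Of 27 genes that type I interferon induces, all with a positive difference, 6 rose at the adjusted p and 24 passed the study's cutoff, with a median of 2.28. Over all genes, 2.17% were called higher and 11.4% were higher at that cutoff. Ifi27l2a, a small membrane protein, was at 3.72 to 4.81 in naive and 7.78 to 10.13 in EAE-RIPK1inh-1 libraries (difference 4.55, adjusted p = 0.00323). The antiviral synthetase genes Oas2 and Oasl2 rose by 4.27 and 4.13. Isg15, a ubiquitin-like modifier, rose by 3.61, while Mx2 and Irf9 had differences of 0.12 and 0.22. Ifitm3, which blocks viral entry, had a difference of 4.62 and an adjusted p of 0.0620, with naive replicate 4 at 0.55 and the other naive libraries at 4.88 to 5.65. The list count was 3 without naive replicate 1 or 3 or EAE-RIPK1inh-1 replicate 2, 3, 4 or 5, and also without both replicates 3.

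Of 15 STAT and IRF factors, 2 rose and 0 fell, against 2.17% and 0.918% of all genes. Irf7, the amplifier of type I interferon, rose by 2.97 (standard error 0.52), a call lost without naive replicate 1, 3 or 4 or EAE-RIPK1inh-1 replicate 2, 3, 4 or 5. Irf8, a lineage factor of microglia, was at 7.83 ± 0.40 (SD, n = 4) and 7.72 ± 0.80 (SD, n = 5), and Stat3 differed by 0.08. The median of the list was 0.08, near the 0.02 of all genes, and the count was 1 in each fit that lost Irf7 and without both replicates 3.

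Among 22 cytokines and chemokines, 6 rose and 0 fell, against 2.17% and 0.918% of all genes, with a median of 1.43. All of the 3 largest were ligands that draw T cells. Ccl5 was at 1.21, 4.38, 2.19 and 0 in naive and 7.71, 7.66, 8.27, 7.83 and 8.22 in EAE-RIPK1inh-1 libraries. Cxcl10 and Cxcl9, both ligands of CXCR3, were at 6.47 to 8.95 and 5.59 to 7.15 in EAE-RIPK1inh-1 libraries, against 0.05 to 3.66 and 0.05 to 1.87. No naive library reached an EAE-RIPK1inh-1 value of these 3 genes. The differences were 6.00, 5.98 and 5.62, with standard errors of 0.74, 0.79 and 0.49. Cxcl13, which attracts B cells, and Ccl8 were without signal in all 4 naive libraries and at 2.98 to 5.98 and 2.37 to 4.15 with disease and inhibitor. Il1b was at 2.73 to 5.39 against 0 to 2.77, overlapping by 1 library (adjusted p = 0.0581). Tnf, the ligand upstream of RIPK1, was at 3.39, 6.07, 3.43 and 3.62 in naive and at 5.68, 4.10, 5.11, 6.17 and 4.78 in EAE-RIPK1inh-1 libraries, which overlapped, with a difference of 1.04 (standard error 0.64, adjusted p = 0.575). Il18bp, a secreted inhibitor of IL-18 and one of the 10 largest rises, went from 0.25 to 1.70 up to 7.41 to 8.23 (difference 6.99, adjusted p = 3.14e-05). The list count was 5 to 6 without any 1 library and 1 without both replicates 3.

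Of 15 complement genes, 6 rose and 0 fell, and 7 were higher and 1 lower at the study's cutoff, with a median of 0.53. The shares of all genes were 2.17% called higher, and 11.4% higher and 9.21% lower at that cutoff. C4b, the component cleaved after C1 binds, was at 0, 1.40, 1.05 and 0.01 in naive, 2 of these without signal, and at 7.33, 6.90, 8.39, 8.43 and 8.06 in EAE-RIPK1inh-1 libraries. Factor B (Cfb) of the alternative pathway was at 0.29, 1.45, 0.77 and 4.79 against 6.94, 7.58, 7.48, 8.65 and 7.77. Naive replicate 4 held the high naive value of Cfb, and the groups did not overlap. The C1 inhibitor Serping1 rose by 5.03, C3 by 3.66 and C1ra by 2.28, and C2 was without signal in naive and at 3.48 to 4.92 in EAE-RIPK1inh-1 microglia. The C1q chains, among the most abundant microglial transcripts, had differences of -0.06 (C1qa), -0.44 (C1qb) and -0.42 (C1qc), and none was called. The count was 3 without naive replicate 2, where Cfb lost its call, and 4 without naive replicate 4 or without both replicates 3.

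Homeostatic microglial genes fell. Of 20 members, 9 fell and 0 rose, against 0.918% and 2.17% of all genes. A negative difference was seen in 19, against 5152 of all 10460 genes, and the median was -1.98. The list mean was 9.45, 9.53, 9.74 and 9.22 in naive and 7.55, 6.92, 7.10, 7.40 and 8.08 in EAE-RIPK1inh-1 libraries, with no overlap. P2ry12, the ADP receptor that guides microglial processes, was at 12.87, 12.87, 12.02 and 13.12 in naive and at 9.83, 8.98, 7.63, 8.48 and 9.20 in EAE-RIPK1inh-1 microglia. The highest EAE-RIPK1inh-1 library was more than 2 log2 units under the lowest naive one. It fell by 3.90 (standard error 0.44, adjusted p = 0.00436), and the call held in each of the 9 fits that left out 1 library. Fcrls, an Fc receptor-like gene particular to microglia, had the largest named fall, from 9.08, 9.26, 9.92 and 9.16 to 4.84, 4.24, 4.45, 2.06 and 6.87. Its EAE-RIPK1inh-1 libraries spread over nearly 5 log2 units, and the call (difference -4.86, standard error 0.79, adjusted p = 0.0229) was lost without any 1 naive library and without EAE-RIPK1inh-1 replicate 2 or 3. Gpr34, a lysophospholipid receptor, fell by 3.74 (adjusted p = 0.0494), a call kept only without EAE-RIPK1inh-1 replicate 1. Selplg, a selectin ligand, was at 12.23 to 12.55 in naive and 8.78 to 10.03 in EAE-RIPK1inh-1 libraries. Tmem119, a membrane marker of microglia, was at 10.73, 11.73, 11.32 and 10.34 against 9.02, 7.84, 8.37, 9.14 and 9.63. Both fell, by 2.88 and 2.23 log2 units (adjusted p = 0.00198 and 0.0429). P2ry13, Serpine2, Slc2a5 and Tgfbr1 were the other members that fell.

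Other homeostatic genes were not called. Cx3cr1, the fractalkine receptor whose protein was part of the gate, was at 8.25, 8.83, 11.14 and 8.31 in naive and 6.66, 5.86, 8.95, 9.16 and 9.41 in EAE-RIPK1inh-1 libraries. EAE-RIPK1inh-1 replicates 3 to 5 lay within the naive range and replicates 1 and 2 below it (difference -1.12, standard error 0.91, adjusted p = 0.575, exact permutation p = 0.294, two-sided). Siglech, a lectin of microglia, was at 9.33 to 10.23 against 7.11 to 9.06, with no overlap and a difference of -1.46 (standard error 0.39, adjusted p = 0.159, exact permutation p = 0.0159). Sall1, the transcription factor of microglial identity, had a difference of -0.65 (standard error 0.40, adjusted p = 0.575), and Crybb1 one of 0.22 (standard error 0.35). The homeostatic count was 3 without naive replicate 1 or 2 or EAE-RIPK1inh-1 replicate 2, and 2 without both replicates 3, while the list median stayed negative in every fit.

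**Figure D3:**
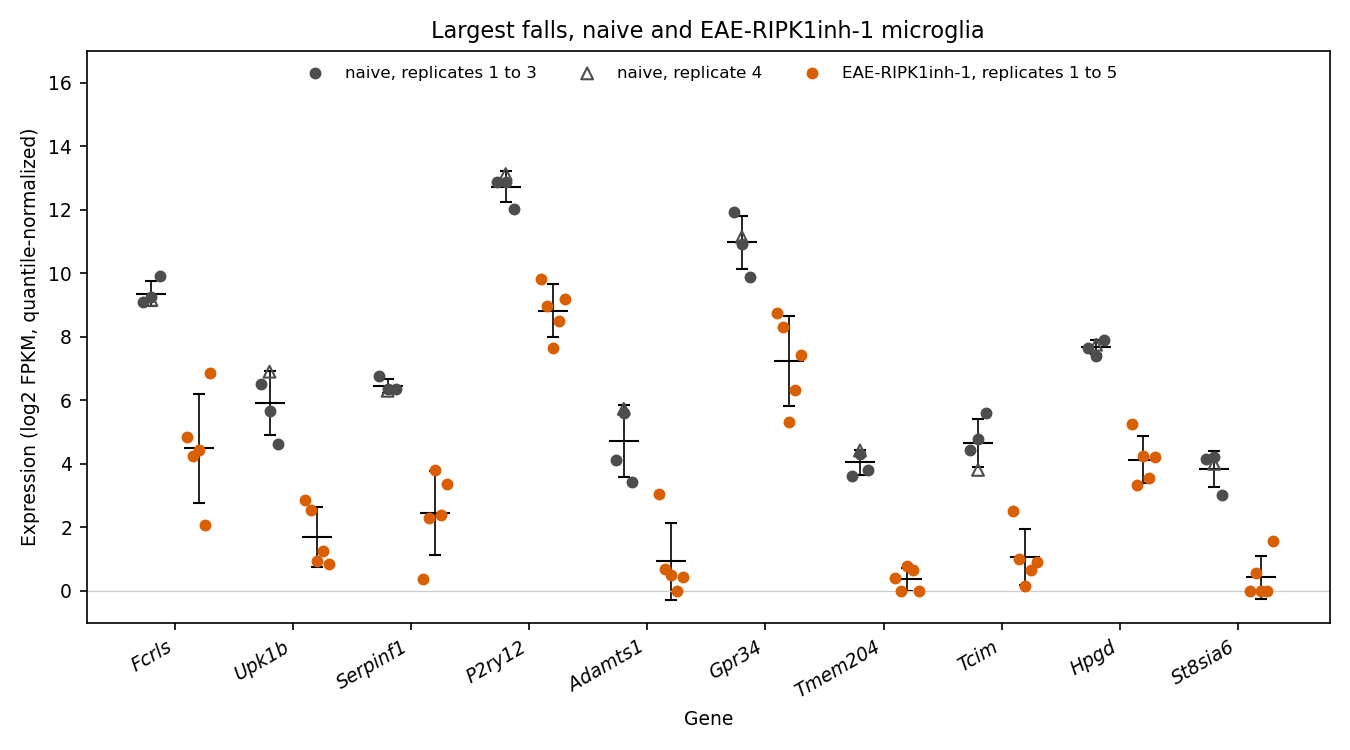
Expression (log2 FPKM) of the 10 genes with the largest falls in each library, naive in grey and EAE-RIPK1inh-1 in orange, with a line at the group mean and bars of 1 SD. P2ry12 and Gpr34 were the most abundant of the 10 in naive microglia, and the EAE-RIPK1inh-1 libraries of Fcrls spread from 2.06 to 6.87.

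Beyond this list, the 10 largest falls held genes of other functions. Hpgd, which degrades prostaglandins, was at 7.64, 7.39, 7.91 and 7.75 in naive and at 5.24, 3.34, 4.25, 3.57 and 4.23 in EAE-RIPK1inh-1 libraries (difference -3.55, standard error 0.37, adjusted p = 0.00285). Tmem204, a membrane protein, was at 3.62 to 4.42 in naive and at 0.78 or less in EAE-RIPK1inh-1 libraries, 2 of them without signal. St8sia6, a sialyltransferase, was at 3.01 to 4.23 against 0 to 1.57, with 3 libraries without signal. Upk1b, a tetraspanin, fell by 4.24 and Serpinf1, which encodes PEDF, by 4.00. Adamts1, an extracellular protease, fell by 3.79 and Tcim by 3.60. The calls of Hpgd and Tmem204 held in each fit that left out 1 library. Upk1b lost its call without naive replicate 1, and St8sia6 without naive replicate 1 or 2. Tcim lost its call without naive replicate 1 or 2 or EAE-RIPK1inh-1 replicate 4, and Serpinf1 without naive replicate 1, 2 or 3 or EAE-RIPK1inh-1 replicate 2 or 4. Adamts1 (adjusted p = 0.0494) kept its call only without EAE-RIPK1inh-1 replicate 1, which held it at 3.04 where the others were at 0 to 0.68.

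TGF-beta signaling, on which the homeostatic state depends, had 8 of 10 members with a negative difference and a median of -0.67. At the study's cutoff 3 were lower and 0 higher, against 9.21% and 11.4% of all genes. The list mean was 4.76 to 4.92 in naive and 3.96 to 4.30 in EAE-RIPK1inh-1 libraries. The 1 called gene, the receptor Tgfbr1, is also on the homeostatic list. Tgfbr1 was at 8.33, 8.37, 8.11 and 8.80 in naive and at 6.79, 5.84, 5.53, 6.27 and 6.80 in EAE-RIPK1inh-1 microglia, without overlap. It fell by 2.16 (standard error 0.31, adjusted p = 0.0132), a call kept without any 1 library and lost without both replicates 3. None of the other 9 members was called, and Smad3, the transcription factor downstream, had a difference of -1.45 (standard error 0.36, adjusted p = 0.122). Of 15 lineage transcription factors, Mef2a alone passed, at -1.54 (adjusted p = 0.0463), and lost its call without any 1 of the 9 libraries. Maf had a difference of -1.64 (adjusted p = 0.0554). Spi1, which encodes PU.1, the master factor of macrophages, was at 7.38 ± 0.68 (SD, n = 4) and 7.14 ± 0.83 (SD, n = 5), a difference of -0.25 (standard error 0.48).

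Of 20 genes of the disease-associated signature, a program of microglia near lesions and plaques, 6 rose and 1 fell, with a median of 1.23. Over all genes, 2.17% rose and 0.918% fell at the adjusted p. Cst7, an inhibitor of cathepsins, was at 3.98, 3.49, 3.63 and 0.08 in naive and 7.16, 7.98, 8.15, 8.08 and 9.00 in EAE-RIPK1inh-1 libraries. Naive replicate 4 had no signal for it, and the difference of 5.28 (standard error 0.78, adjusted p = 0.0143) was called in each fit that left out 1 library and lost without both replicates 3. Axl, a receptor for dying cells, was at 2.89 to 4.20 against 5.97 to 8.11 and rose by 3.66, a call lost without naive replicate 1 or 2. Ch25h, which makes 25-hydroxycholesterol, rose by 3.49 (adjusted p = 0.0487), a call kept only without naive replicate 2. Itgax rose by 3.23, Apoe by 3.13 and Gpnmb by 2.92. Trem2, the lipid receptor on which the late stage of this program depends, moved the other way, from 10.79, 10.52, 10.38 and 10.92 to 9.52, 9.14, 9.21, 9.47 and 9.70. The 2 ranges were apart and each spanned less than 0.6 log2 units. It fell by 1.24 (standard error 0.21, adjusted p = 0.0259), a call lost without naive replicate 1 or 2 or EAE-RIPK1inh-1 replicate 1, 2, 3 or 4. Clec7a, Spp1 and Lpl, also of the signature, had differences of 1.24, 0.91 and -1.32 that were not called. The higher count was 1 without naive replicate 1 and 1 without both replicates 3, and the median was 1.54 without naive replicate 4.

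**Figure D4:**
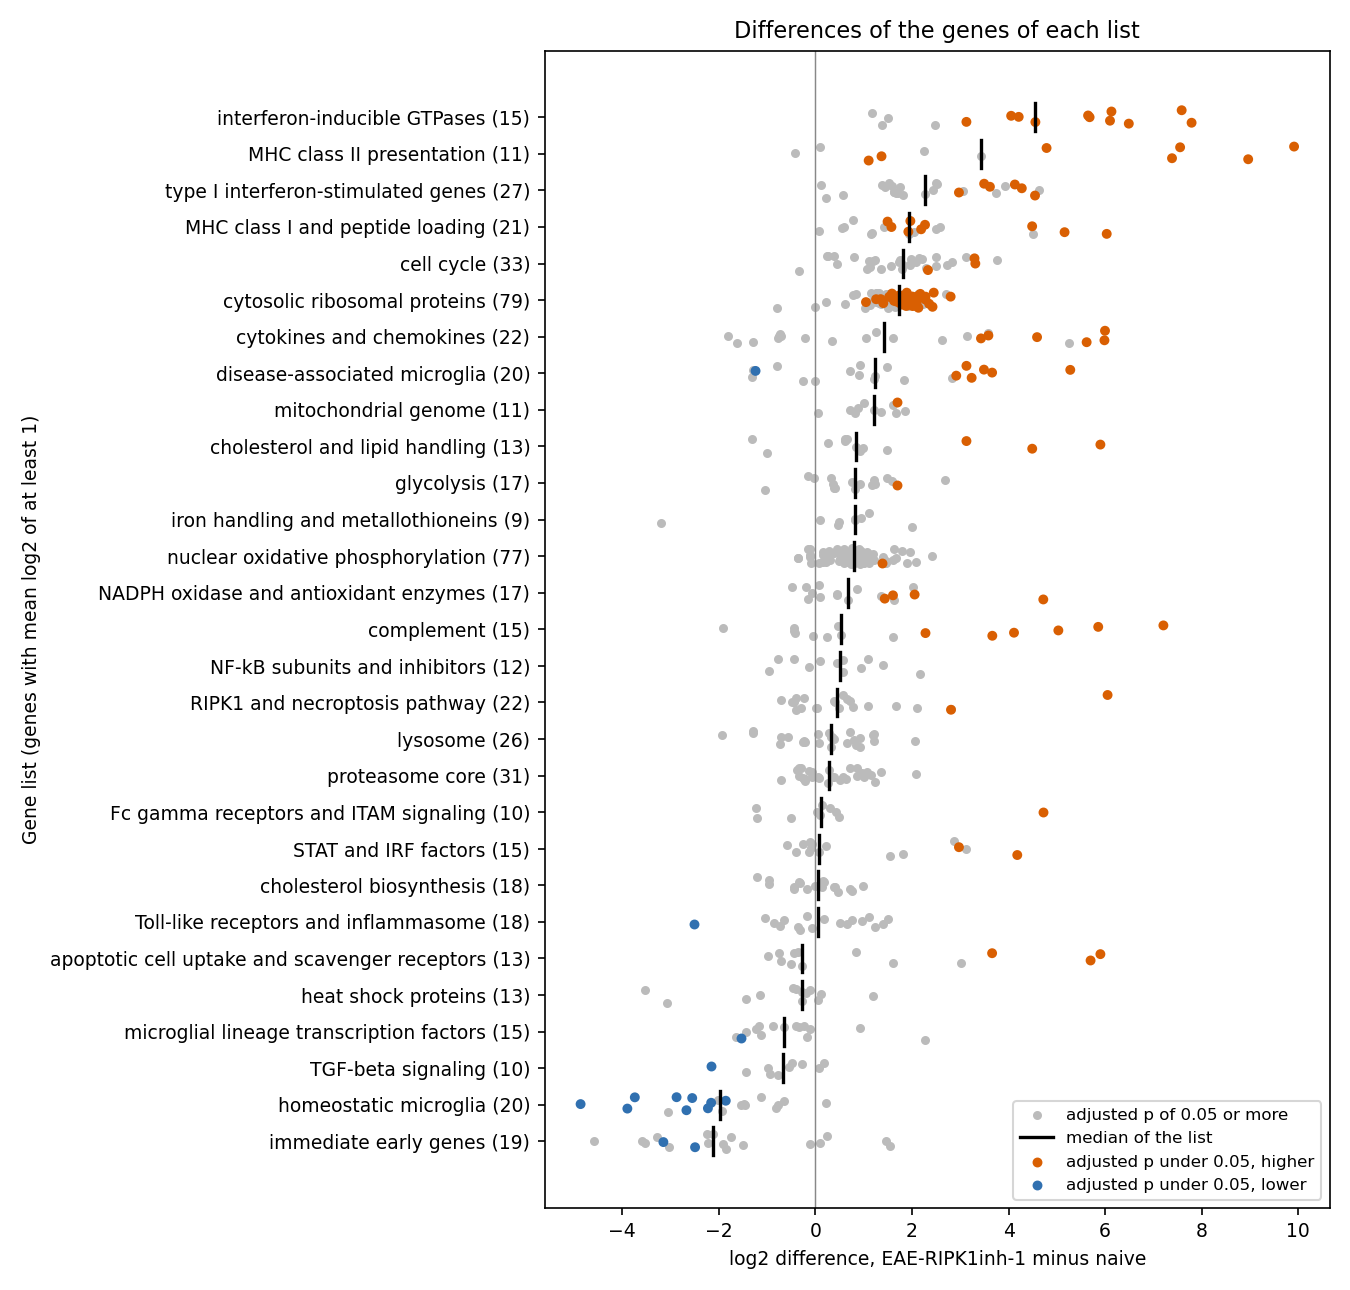
Difference between EAE-RIPK1inh-1 and naive microglia (log2) of every gene with a mean of at least 1 in each of 29 gene lists, ordered by list median (black line), with genes called higher in orange, lower in blue and the rest in grey. Interferon-inducible GTPases have the highest median, 4.55, and homeostatic and immediate early genes the lowest, -1.98 and -2.12.

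Of 22 genes of the RIPK1 and necroptosis pathway, 2 rose and 0 fell, against 2.17% and 0.918% of all genes. At the study's cutoff 5 were higher and 1 was lower, against 11.4% and 9.21%. Ripk1 was at 4.15, 3.65, 2.51 and 4.05 in naive and at 4.11, 3.82, 2.80, 3.37 and 2.70 in EAE-RIPK1inh-1 libraries, which overlapped nearly fully (difference -0.23, standard error 0.45, adjusted p = 0.778, exact permutation p = 0.619). Ripk3, the kinase of necroptosis, was at 2.99, 1.48, 2.62 and 0 against 3.22, 4.08, 3.83, 3.11 and 2.94, a difference of 1.67 (standard error 0.61, adjusted p = 0.359, exact permutation p = 0.0159). Mlkl, the protein that opens the membrane in necroptosis, was without signal in all 4 naive libraries and at 1.67, 4.26, 2.61, 3.91 and 3.27 in EAE-RIPK1inh-1 libraries (adjusted p = 0.0538). Zbp1, a nucleic acid sensor that recruits RIPK3 and is itself induced by interferon, was at 1.91, 3.06, 0.03 and 0.09 in naive and at 6.80, 7.27, 7.61, 7.62 and 7.31 in EAE-RIPK1inh-1 microglia. Its lowest EAE-RIPK1inh-1 value was over 3 log2 units above the highest naive value (difference 6.05, standard error 0.61, adjusted p = 0.00227), and the call held without any 1 library. Rnf31, the catalytic subunit of the linear ubiquitin ligase, rose by 2.81 (adjusted p = 0.0433), a call kept only without naive replicate 3 or EAE-RIPK1inh-1 replicate 2. None of the other 20 of 22 members was called, and the median was 0.44. The count was 1 without naive replicate 1, 2 or 4 or EAE-RIPK1inh-1 replicate 3, 4 or 5, and without both replicates 3. Of 12 NF-kB subunits and inhibitors, 0 were called by limma, with Bcl3 at a difference of 2.17 and Nfkb1 at -0.96. At the study's cutoff 1 of the 12 was higher and 2 were lower, against 11.4% and 9.21% of all genes.

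Of 10 genes of Fc gamma receptors and their signaling, 1 rose and 0 fell, with a median of 0.11. Of 18 Toll-like receptor and inflammasome genes, 0 rose and 1 fell, with a median of 0.06. Of 13 genes for uptake of dying cells and scavenging, 3 rose (Axl, Cd36 and Cd300lf) and 0 fell, against 2.17% of all genes higher. The median of these 13 was -0.28, and 1.29 with confounded genes left out, and their count was 2 without naive replicate 1 or 2 and 1 without both replicates 3. Fcgr4, the activating Fc receptor for IgG2a and IgG2b, was at 3.79, 3.99, 4.27 and 4.05 in naive and 8.78, 8.81, 8.26, 9.26 and 8.57 in EAE-RIPK1inh-1 libraries. The spread within each group was under 0.4 (SD), and the difference of 4.71 (standard error 0.23, adjusted p = 3.21e-05) held in each fit without 1 library. Fcgr3 was at 11.38 to 12.43 against 9.83 to 11.81, a difference of -1.20 that was not called (adjusted p = 0.384). Cd14, the coreceptor for lipopolysaccharide, fell by 2.52, from 9.53 ± 0.32 (SD, n = 4) to 7.01 ± 0.84 (SD, n = 5), a call kept only without EAE-RIPK1inh-1 replicate 1. Cd36, a scavenger receptor for oxidized lipids, was at 0.04, 1.05, 0.09 and 3.79 in naive and at 6.70, 7.95, 6.78, 7.30 and 6.99 in EAE-RIPK1inh-1 microglia. Cd300lf, a receptor for phosphatidylserine, was at 2.62, 2.42, 4.26 and 0 against 7.75, 8.45, 7.82, 8.21 and 7.87. Both rose, by 5.90 and 5.70 log2 units (adjusted p = 0.00664 and 0.00644). Both calls held without any 1 library, and without both replicates 3 that of Cd300lf held and that of Cd36 was lost. Mertk, which binds dying cells at rest, had a difference of -0.37.

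Of 13 genes of cholesterol and lipid handling, 3 rose (Cd36, Apoc1 and Apoe) and 0 fell, against 2.17% and 0.918% of all genes. At the study's cutoff 6 were higher and 1 was lower, against 11.4% and 9.21%, and the median was 0.84. The count was 2 without both replicates 3 and without any 1 library other than EAE-RIPK1inh-1 replicate 3. Apoc1, an apolipoprotein, was at 1.11, 0.09, 1.25 and 0.33 in naive, 2 of these without signal, and at 4.79 to 5.46 in EAE-RIPK1inh-1 libraries (difference 4.49, adjusted p = 0.000386). Apoe, the main lipid carrier of the CNS, was at 10.27, 11.32, 11.48 and 11.64 against 15.34, 13.93, 12.70, 15.34 and 14.20. EAE-RIPK1inh-1 replicates 1 and 4 stood at the top of the scale, the difference was 3.13 (standard error 0.58, adjusted p = 0.0405), and the call was kept only without EAE-RIPK1inh-1 replicate 3. Of 18 cholesterol biosynthesis genes, 0 were called by limma and 0 passed the study's cutoff, and the median was 0.06. The list mean was 2.66 to 3.37 in naive and 2.57 to 3.18 in EAE-RIPK1inh-1 libraries. Of 26 lysosomal genes 0 were called, and the median was 0.32. At the study's cutoff 4 of the 26 were higher and 5 were lower, against 11.4% and 9.21% of all genes.

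Genes of protein synthesis and energy metabolism were mostly higher. Of 79 cytosolic ribosomal protein genes, 35 rose and 0 fell, 77 had a positive difference and 74 passed the study's cutoff, with a median of 1.73. Over all genes, 2.17% were called higher and 11.4% were higher at that cutoff. The list mean was 5.32, 4.98, 5.48 and 5.77 in naive and 6.83, 6.87, 7.60, 6.88 and 6.98 in EAE-RIPK1inh-1 libraries, with no overlap and with replicate 3 highest. Rpl36a, of the large subunit, rose by 2.80 (standard error 0.37, adjusted p = 0.00857) in all 9 fits, though not without both replicates 3, while Rps23 and Rpl29 rose by 2.45 and 2.42 and lost the call in 6 and 7 of them. The fits that lost Rps23 were those without naive replicate 1, 2 or 3 or EAE-RIPK1inh-1 replicate 2, 4 or 5. Those that lost Rpl29 were without naive replicate 1, 2 or 4 or EAE-RIPK1inh-1 replicate 2, 3, 4 or 5. The ribosomal count was 17 without naive replicate 2 and 13 without both replicates 3. Many ribosomal protein genes have processed pseudogenes, with which reads may have been shared. Of 77 nuclear genes of oxidative phosphorylation, 70 had a positive difference and 32 passed the study's cutoff, against 11.4% of all genes higher. Only 1 was called (Uqcrh, difference 1.37, adjusted p = 0.0345), against 2.17% of all genes, and the median was 0.80. Of 11 genes of the mitochondrial genome, all had a positive difference and mt-Nd5 was called at 1.69 (adjusted p = 0.0427). The call of Uqcrh was kept only without naive replicate 1 or EAE-RIPK1inh-1 replicate 1, and that of mt-Nd5 only without EAE-RIPK1inh-1 replicate 1. Of 17 glycolytic genes, Pgk1 rose by 1.69 (adjusted p = 0.0405), a call kept only without naive replicate 4 or EAE-RIPK1inh-1 replicate 5.

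The oxidase and antioxidant genes held 4 called members of 17, all higher, against 2.17% of all genes. Cybb, the catalytic subunit of the phagocyte NADPH oxidase, was at 3.05, 2.23, 2.34 and 1.31 in naive and at 6.02, 7.04, 6.98, 7.57 and 7.17 in EAE-RIPK1inh-1 libraries. No libraries overlapped, and the difference of 4.72 (standard error 0.41, adjusted p = 0.00109) held in each fit without 1 library. The oxidase subunits Cyba, Ncf1 and Ncf4 had differences of 0.10, 0.45 and -0.50. Txn1 rose by 2.05, Prdx1 by 1.61 and Prdx5 by 1.43, all 3 enzymes or carriers that reduce peroxides. Prdx1 lost its call without naive replicate 2, and Txn1 kept it only without EAE-RIPK1inh-1 replicate 1 or 3. The count was 1 without naive replicate 2 and 1 without both replicates 3. Of 9 genes of iron handling, 0 were called by limma. At the study's cutoff 3 of the 9 were higher and 1 was lower, against 11.4% and 9.21% of all genes. The iron exporter Slc40a1 was at 5.98, 6.31, 6.49 and 3.94 against 3.11, 1.45, 3.62, 1.33 and 2.95 (difference -3.19, standard error 0.67, adjusted p = 0.0678).

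**Figure D5:**
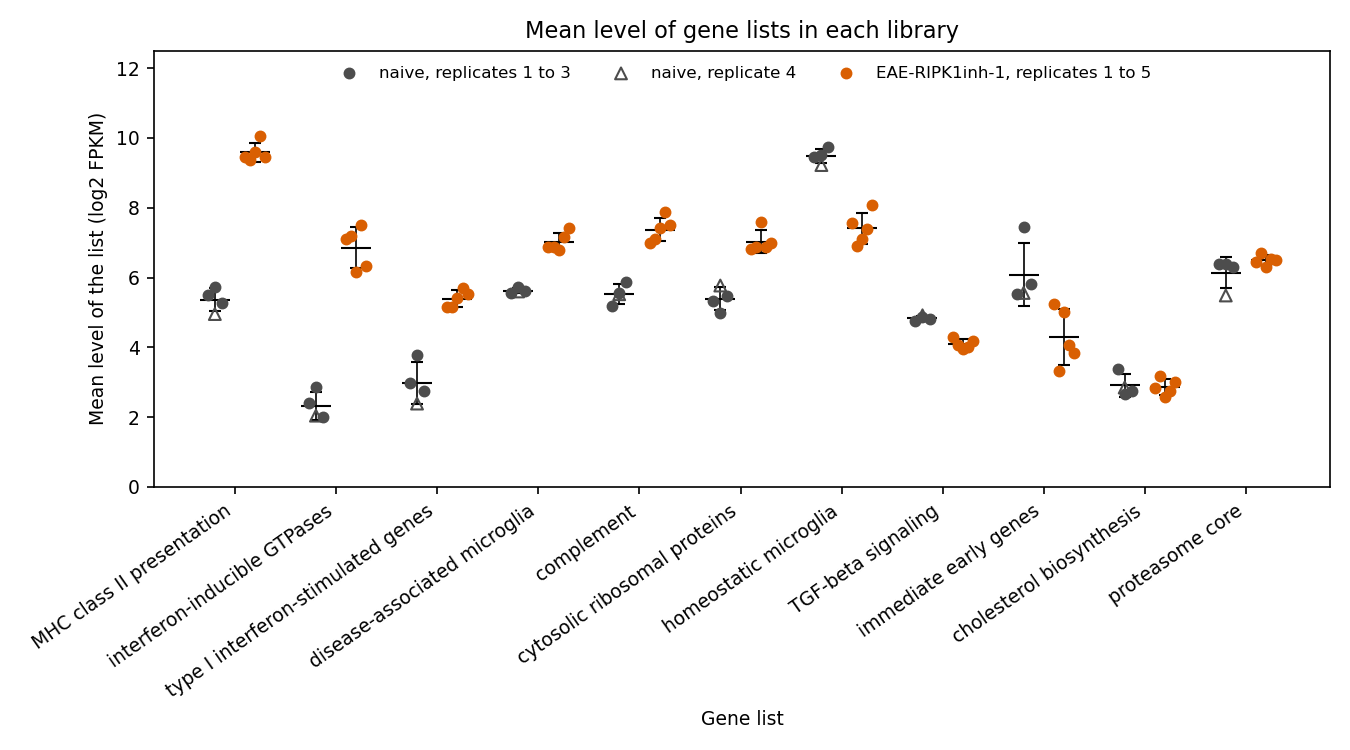
Mean level (log2 FPKM) of 11 gene lists in each library, naive in grey and EAE-RIPK1inh-1 in orange, with a line at the group mean and bars of 1 SD. The groups overlap for cholesterol biosynthesis and the proteasome core, and for none of the other lists shown.

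Immediate early genes, which stimulation and also cell isolation induce within minutes, had the lowest list median, -2.12. Of 19 members, 2 fell and 0 rose, against 0.918% and 2.17% of all genes. At the study's cutoff 12 were lower and 1 was higher, against 9.21% and 11.4%. The list mean was 5.53, 7.44, 5.83 and 5.56 in naive and 5.23, 3.33, 5.01, 4.07 and 3.84 in EAE-RIPK1inh-1 libraries. Naive replicate 2 stood highest and EAE-RIPK1inh-1 replicate 1 nearest to the naive range. Btg2 fell by 3.15 and Rhob by 2.49 (adjusted p = 0.0276 and 0.0271). Rhob lost its call without any 1 naive library and without EAE-RIPK1inh-1 replicate 2 or 5, and Btg2 kept it only without EAE-RIPK1inh-1 replicate 1. Without both replicates 3 the call of Rhob held and the count was 1. Fos had the largest difference, -4.58, with EAE-RIPK1inh-1 values from 0.87 to 6.90 and an adjusted p of 0.163. Of 13 heat shock genes, 0 were called by limma, and Hspa1a, an inducible chaperone, was at 8.04 to 10.79 against 3.17 to 8.17. At the study's cutoff 1 of the 13 was higher and 2 were lower, against 11.4% and 9.21% of all genes. Whether the isolation of the cells plays a part in these differences was not tested.

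Cell cycle genes were low in naive microglia and higher in EAE-RIPK1inh-1 libraries. Of 33 members, 32 had a positive difference, against 5308 of all 10460 genes. At the study's cutoff 21 were higher, against 11.4%, and 3 rose at the adjusted p, against 2.17%. The list median was 1.81. Cdk1, the kinase that drives mitosis, was at 2.72, 2.51, 1.76 and 0 in naive and at 4.40, 5.32, 5.83, 4.08 and 5.65 in EAE-RIPK1inh-1 libraries. Cdca3 and Prc1, both of mitosis, were at 2.36 to 4.91 and 3.09 to 4.19 against 0.25 to 1.12 and 0.42 to 1.88. Cdk1, Cdca3 and Prc1 rose by 3.31, 3.29 and 2.33 (adjusted p = 0.0427, 0.0199 and 0.0358). Of the 33 members, 9 were higher without overlap between the groups, against 6.54% of all genes. The count was 0 without naive replicate 1 or EAE-RIPK1inh-1 replicate 2, 3, 4 or 5, and 0 without both replicates 3, where all 3 genes lost their call. Mki67, a marker of dividing cells, was at 0.73 ± 0.36 (SD, n = 4) and 2.52 ± 1.17 (SD, n = 5), with an adjusted p of 0.316.

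Markers of other cells also differed. Fn1, a fibronectin gene on the monocyte list, was at 0, 0.34, 0.71 and 0 in naive and 3.78, 5.34, 5.29, 4.49 and 4.74 in EAE-RIPK1inh-1 libraries, and rose by 4.47 (standard error 0.39, adjusted p = 0.00109). It was the only member called of the 9 monocyte markers above the minimum. Ly6c2, the marker of classical monocytes, was at 0, 4.55, 8.43, 4.98 and 4.25 in EAE-RIPK1inh-1 libraries and at 5.05 in naive replicate 3, with 0 in the other naive libraries. Ighm, the heavy chain of IgM, was at 9.09, 9.29, 8.80 and 9.31 in naive and at 7.95, 7.68, 7.09, 7.91 and 7.69 in EAE-RIPK1inh-1 libraries and fell by 1.46 (standard error 0.23, adjusted p = 0.0184). The call of Ighm was lost without naive replicate 1 or 2 or EAE-RIPK1inh-1 replicate 2 or 5. Cd79b, the other B cell marker above the minimum, had a difference of -1.91 (adjusted p = 0.182). Summed B cell signal was 465 to 714 in naive and 153 to 270 in EAE-RIPK1inh-1 libraries. Among endothelial markers Pecam1 had a difference of -2.43 and Flt1 of 1.22, and among astrocyte markers Aldh1l1 had 2.35, Gfap 0.66 and Slc1a3 0.15. None of these was called. Ms4a7, a marker of border-associated macrophages, was at 0 to 0.21 in naive and 0.58 to 3.43 in EAE-RIPK1inh-1 libraries (adjusted p = 0.176). Stab1, the only other of the 9 markers of these cells with a mean of at least 1, had a difference of -0.52, and Pf4 and Cd163, below the minimum, had differences of -1.21 and 0.00.

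Of the named genes, 62 were called. The calls of 33 of the 62 genes held in each of the 9 fits that left out 1 library, and 46 held without naive replicate 4. Without both replicates 3, 32 held. With library quality weights 45 held, and with a replicate block, fitted without EAE-RIPK1inh-1 replicate 5, 14 held. None of the 62 changed direction in an alternative fit that included it, and the fit without confounded genes included 37 of them. Leaving out, weighting or blocking libraries could not reverse a direction, because called genes had no overlap between the groups.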

How the data were processed

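Microglia were sorted from spinal cord dissociated with Accutase at 4°C, and cDNA was amplified from oligo(dT)-primed RNA, tagmented with Tn5 and sequenced. The authors deposited log2 FPKM values made with OmicSoft Array Studio 10.1.1.3 and quantile-normalized over 30 samples, so every library holds the same set of values and global shifts cannot be seen. The offset before the logarithm and the depth of each library are not given in the sources used here, so no counting interval is given. All 30952 gene IDs matched GENCODE M21 (GRCm38). The deposited annotation marks 5964 of the 10460 genes as confounded. What this mark means is not given in the sources used here.

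The 5 EAE-RIPK1inh-1 and 4 naive libraries were compared with limma 3.58.1 (R 4.3.3) with a variance trend. The 27970 genes whose values were not identical in the 9 libraries were fitted, and Benjamini-Hochberg adjustment ran over all of them. A gene was called at an adjusted p under 0.05. The study's cutoff, a fold over 1.5 and an unadjusted p under 0.05, was counted beside it. Exact permutation tests over the assignments of libraries to groups were two-sided and cannot go below 0.00794. The study gives its sample sizes for this sequencing as mice, 4 naive and 5 EAE-RIPK1inh-1. Libraries are therefore taken as separate animals, and p-values measure the spread between these libraries. The fit was tested on simulated data.

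Genes were named as the 10 largest called rises and falls with no overlap, up to 3 of each direction in every list, and Ripk1, Ripk3, Mlkl, Cx3cr1 and Siglech. Other genes in the text were chosen after their values were seen. The members and lists were chosen with earlier results of these data known. Alternatives were handling of undetected values, filter, centring, offset, library weights, variance trend, replicate block, confounded genes and single libraries. Leaving out both replicates 3 was added after seeing the data. Some genes are not reported here.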

Additional observations from a re-analysis of the deposited data

Results flagged for a closer look

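Of 270 groups of values examined, 23 held a library far from the others of its group by Dixon's criterion, and chance gives about 13.5. Values are log2 FPKM.

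In naive libraries, 1 value stood high for Siglech (10.23, others at a median of 9.41), Serpina3f (0.90), Serpinf1 (6.78), Nkg7 (4.80), Oas2 (1.59), Bcl3 (2.19), Cd63 (8.97) and Btg2 (9.58). The naive value that stood low was 0.00 for Il7r, 0.08 for Cst7, 3.72 for Ifi27l2a and 11.38 for Fcgr3.

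In EAE-RIPK1inh-1 libraries, 1 value stood high for H2-Aa (11.81, others at a median of 11.14), Adamts1 (3.04), Ctss (15.34), Nkg7 (6.59), Rps23 (6.77), Fth1 (12.87) and Prc1 (4.19). Rnf31 stood low in 1 library at 2.19.

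Among list means, ribosomal protein genes stood high in EAE-RIPK1inh-1 replicate 3 at 7.60, the proteasome core stood low in naive replicate 4 at 5.49, and immediate early genes stood high in naive replicate 2 at 7.44. The cause of these values was not tested.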

How the results depend on the processing

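Of the 62 called named genes, none changed direction in an alternative that included it, and 37 were in the fit without confounded genes. Since the groups did not overlap for called genes, leaving out, weighting or blocking libraries could not reverse a direction. Fitting only genes with a mean of at least 1 gave 524 higher and 259 lower genes, and a fit with no variance trend gave 145 lower genes. Leaving out confounded genes gave 116 higher and 42 lower genes, with 580 and 419 at the study's cutoff. Leaving out both replicates 3 gave 97 and 20. Leaving out 1 library gave 129 to 233 higher and 28 to 94 lower genes. The cause of these shifts was not tested.

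Deviations from the group means correlated at -0.11 to 0.24 between samples with the same replicate number. Between samples with different numbers they correlated at -0.35 to 0.34. The labels do not pair the samples, and so few correlations cannot decide whether the numbers do. With the replicate block, fitted without EAE-RIPK1inh-1 replicate 5, 31 genes were higher and 1 lower, and 14 of the 62 named calls held.

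List medians moved as follows. Without 1 library they ranged from 1.09 to 1.54 for the disease-associated signature, 2.06 to 3.97 for MHC class II, -0.19 to 0.34 for Toll-like receptors and inflammasome (reversed at -0.19 without naive replicate 1 and -0.17 without EAE-RIPK1inh-1 replicate 4), 0.30 to 0.87 for iron handling and -0.73 to -0.55 for TGF-beta. With library quality weights the medians were 1.59 (disease-associated), 2.38 (MHC class II), 0.34 (Toll-like receptors), 0.90 (oxidase and antioxidant) and -0.54 (TGF-beta). Without confounded genes they were 2.34, 2.24, 2.27 (MHC class I), 3.59 (GTPases), 1.68 (STAT and IRF), 2.62 (cytokines), 0.10 (NF-kB), 1.29 (scavenger receptors, reversed) and -0.86 (TGF-beta), the first 2 for the disease-associated signature and MHC class II. With 1 added on the linear scale they were 3.99 (GTPases), 1.73 (type I interferon genes) and -0.55 (TGF-beta). Without both replicates 3 the MHC class II median was 3.81. Depth is unknown, which limits statements on genes near the undetected range.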

Other observations

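Genes outside the lists, chosen after their values were seen for their small p, added further functions. Tspo, the mitochondrial protein that PET tracers of neuroinflammation bind, was at 6.38 to 7.28 in naive and 9.08 to 9.45 in EAE-RIPK1inh-1 libraries, a rise of 2.47 (limma, standard error 0.23, adjusted p = 0.00150). Il2rg, the common gamma chain of cytokine receptors, was at 4.83 to 5.99 and 8.31 to 9.66. Acod1, which makes itaconate, was at 0.00 to 0.52 and 4.33 to 6.00. Cd40, the costimulatory receptor, was without signal in all 4 naive libraries and at 4.39 to 4.84 in EAE-RIPK1inh-1 libraries.

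Among genes that fell, Cst3, the cystatin C gene, was at 15.34, the top of the scale, in all 4 naive libraries and at 12.23 to 13.51 in EAE-RIPK1inh-1 libraries. Susd3 was at 8.12 to 8.78 and 5.19 to 6.15. Gpr183, the receptor for the oxysterol made from the product of Ch25h, fell by 2.58 (standard error 0.29, adjusted p = 0.00436), from 6.21 to 7.00 down to 3.61 to 4.76. Hnmt, which inactivates histamine, was at 4.60 to 4.97 and 0.36 to 2.57. The calls of these genes held without any 1 library, except those of Cst3 and Hnmt, each lost in 1 fit.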
